A study of Drosophila melanogaster with 9 samples.

Results

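Mitochondrial ribosomal proteins are encoded in the nucleus, made in the cytosol and imported into mitochondria. There they join ribosomal RNAs of the mitochondrial genome to form the mitoribosome. The mitoribosome translates the mitochondrial messenger RNAs, which in animals encode core subunits of the respiratory chain and of ATP synthase. Its small subunit decodes the messenger RNA and its large subunit forms the peptide bonds. The genes described here are those whose deposited gene symbol starts with mRpL (large subunit) or mRpS (small subunit). By this rule there were 72 members among 13140 genes, 46 named for the large and 26 for the small subunit. All 72 are annotated as protein coding and all 72 passed the filter on low counts that left 12913 genes for the tests. The symbols name the subunit only by convention: in mammalian mitoribosome structures the MRPS18A and MRPS30 proteins sit in the large subunit. Some mitoribosomal genes carry other symbols and fall outside the rule, among them tko, bonsai and Rlc1 (mRpL47).

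Messenger RNA was selected by its polyA tail from lysates of entire adult flies (Drosophila melanogaster, Canton S background) aged 10 to 11 days, and sequenced. All flies were wild-type in genotype, and they fell into 3 groups of 3 libraries. WT flies had no obese grandparent and no heterozygous parent. GP/P and GP/M flies were second-generation descendants of obese grandfathers, and the series title ties the obesity to AKHR, the receptor of adipokinetic hormone, which mobilises stored fat. Descent ran through a heterozygous father in GP/P and through a heterozygous mother in GP/M. The labels describe the replicates as independent, with 1 set of libraries from each experiment, so libraries sharing a replicate number are called set 1, set 2 and set 3. The number of flies per library and their sex are not stated in the labels. Library totals ran from 21777434 to 28166388 counts. Markers of testis (summed level 2223 to 2481 CPM per library) and of the male accessory gland (3533 to 4032 CPM) were high, while the 6 ovary and eggshell markers that passed the filter summed to 18.8 to 29.0 CPM. CPM is a count scaled to a fixed library size with TMM factors. A transcript level in whole flies cannot tell fewer cells of a type from less RNA per cell.

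The 72 genes were expressed at moderate and narrowly spread levels. Per kilobase of exon, which allows levels of different genes to be set side by side, the median level was 18.8 CPM per kb, against 12.8 for all genes tested with an exon length. Of the 72 members, 62 lay above that median of all genes. The level spanned 6.63-fold, from 7.70 CPM per kb for mRpL21 to 51.1 for mRpS7. The median was 17.99 CPM per kb over the 46 large subunit genes and 20.8 over the 26 small subunit genes. Members with the low numbers shared with bacterial ribosomal proteins (large subunit up to 36, small subunit up to 21) had a median of 20.1 CPM per kb over 42 genes. The 30 members with higher numbers, mostly proteins that mitochondrial ribosomes have gained, had a median of 17.8. The nuclear partners in mitochondrial translation were lower on this scale, with medians of 10.4 CPM per kb for 14 translation factors and 5.06 for 16 mitochondrial tRNA synthetases. Respiratory chain subunits encoded in the nucleus had a median of 248 CPM per kb and cytosolic ribosomal proteins one of 679.

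**Figure D1:**
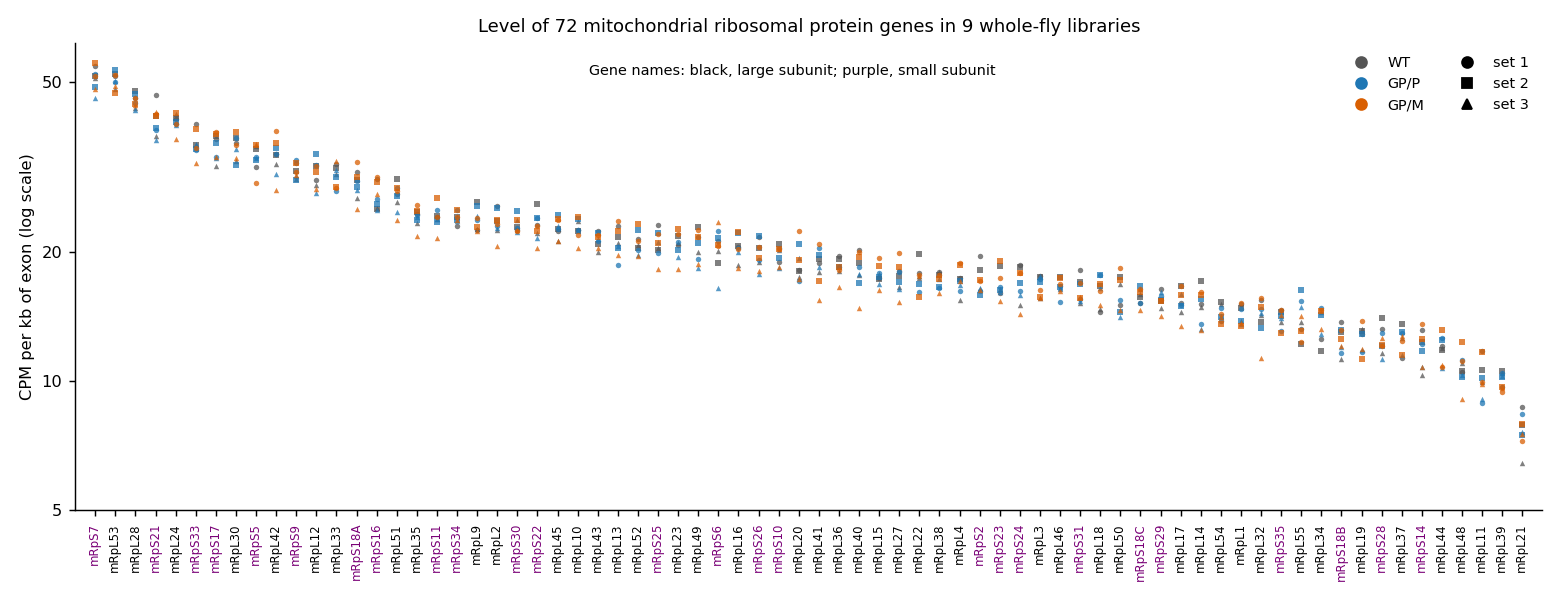
Level of each of the 72 genes in CPM per kb of exon on a log scale, ordered by mean level, with 1 point per library (colour, group; shape, set). The genes run from 51.1 CPM per kb for mRpS7 to 7.70 for mRpL21, and points of the 3 groups are intermixed at most genes.

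At the top of the order, mRpS7, whose bacterial homologue sits in the head of the small subunit, had WT libraries at 52.4 ± 1.81 CPM per kb, GP/P libraries at 49.0 ± 3.09 and GP/M libraries at 51.8 ± 3.64 (mean ± SD of 3 libraries, as wherever ± is used). The large subunit gene mRpL53 followed at 50.8 ± 2.16, 51.2 ± 1.79 and 49.4 ± 2.38 CPM per kb in the same order of groups. Within each group, these leading genes did not differ from each other beyond their spread. mRpS7 was lower in GP/P than in WT in 3 of 3 sets, with overlapping ranges. All of the annotated exon of mRpL53 is also exon of AGO1 or CG33155, the latter on the same strand, so its reads may be shared. Next came mRpL28 (45.7 ± 2.11, 44.8 ± 1.93 and 44.8 ± 0.890 CPM per kb), mRpS21 (41.9 ± 4.56, 38.1 ± 1.24 and 42.1 ± 0.519) and mRpL24 (41.4 ± 0.516, 40.0 ± 0.255 and 39.7 ± 2.68). The mRpS21 and mRpL24 means lay within the larger of their SDs in WT and in GP/M. At the bottom, mRpL21 was at 7.68 ± 1.15, 7.83 ± 0.487 and 7.59 ± 0.350 CPM per kb. It was preceded by mRpL39 (10.3 ± 0.470, 10.3 ± 0.110 and 9.60 ± 0.131), whose mammalian homologue resembles a threonyl-tRNA synthetase, and by mRpL11 (10.8 ± 0.903, 9.37 ± 0.689 and 10.5 ± 1.05), part of the region where translation factors bind. Before these stood mRpL48 (10.7 ± 0.263, 10.6 ± 0.547 and 10.9 ± 1.64) and mRpL44 (11.95 ± 0.143, 11.9 ± 1.06 and 11.6 ± 1.34), an RNase III-like protein. The order of mRpL48, mRpL11 and mRpL39 was not the same in each group, mRpL11 being the lowest of them in GP/P and mRpL39 in WT and GP/M. Of the genes outside the rule, tko, the fly gene for the small subunit protein S12 and a long-used model of mitochondrial disease, stood at 8.28 CPM per kb, bonsai, the S15 gene, at 23.0, and Rlc1 at 18.3.

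None of the 72 genes differed between the groups past the threshold, and their levels were measured closely. The summed member level was 1364, 1371 and 1297 CPM in the WT libraries of sets 1, 2 and 3. It was 1328, 1346 and 1285 CPM in GP/P, and 1362, 1365 and 1255 CPM in GP/M. The ranges of the 3 groups overlapped, and in each group the set 3 library was lowest. In group means these are 1344 ± 40.8 CPM for WT, 1320 ± 31.1 for GP/P and 1327 ± 62.7 for GP/M. The large subunit share was 793 ± 24.3, 784 ± 17.8 and 783 ± 44.7 CPM and the small subunit share 551 ± 17.8, 535 ± 13.99 and 544 ± 19.8 CPM in the same order. For all 72 genes, the 95% interval of the fold change lay within 1.5-fold in both directions in each comparison of groups. The outermost bounds were 0.744 and 1.37 for GP/P against WT, 0.815 and 1.31 for GP/M against WT, and 0.764 and 1.35 for GP/P against GP/M.

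**Figure D2:**
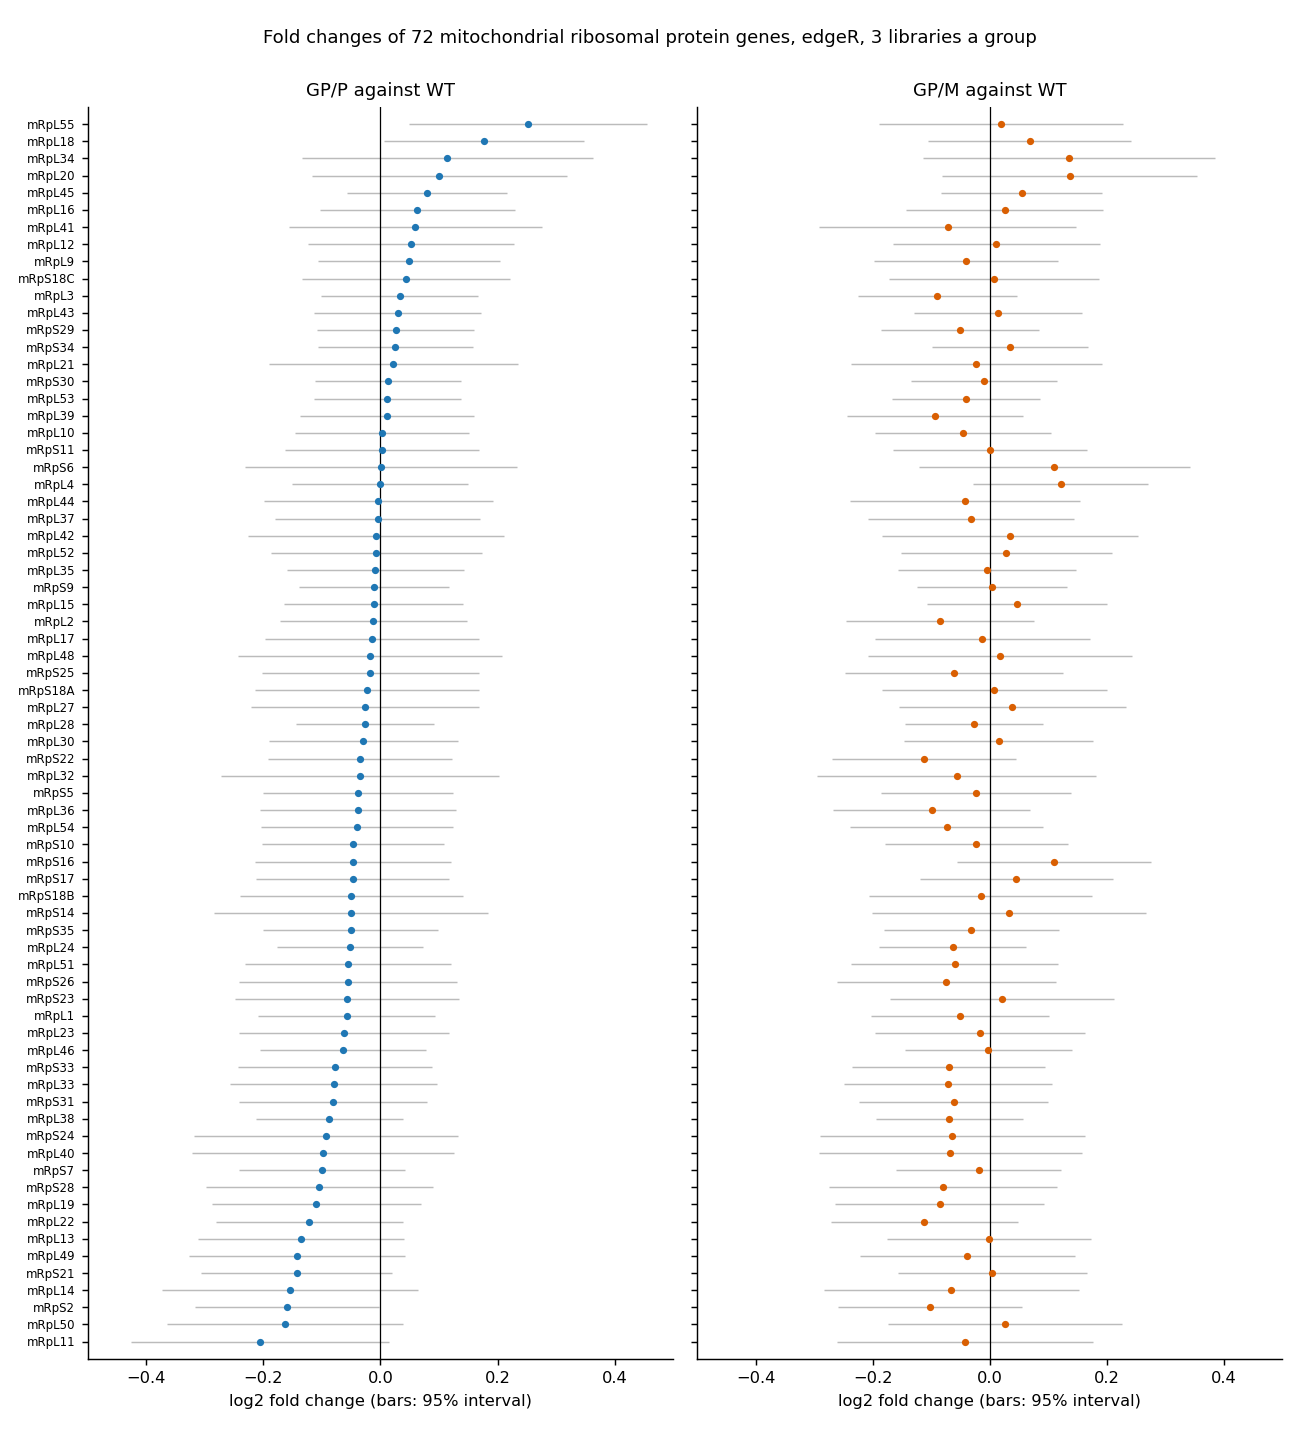
Fitted log2 fold change of each of the 72 genes for GP/P against WT (left) and GP/M against WT (right), with 95% intervals from edgeR over 3 libraries a group, both panels in the order of the left one. Only mRpL55 and mRpL18 (higher) and mRpS2 (lower) have an interval that leaves out 0, and only in the left panel, and none of these passed after adjustment.

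In the comparison of the paternal line GP/P with WT, 0 of 72 members were called (edgeR quasi-likelihood test, Benjamini-Hochberg adjusted p under 0.05), and over all genes the percent called was also 0. At an unadjusted p under 0.05 there were 3 members (4.17%), against 2.59% of all genes. By DESeq2, 0 members were called and 0 were at the unadjusted level, against 0% and 1.30% of all genes. Fitted fold changes ran from 0.867 to 1.19. They were above 1 for 21 members and below 1 for 51, where 51.8% of all genes were above, and the median was -0.03 in log2 against 0.00 for all genes. Among large subunit genes 15 were above and 31 below, with a median of -0.01, and among small subunit genes 6 and 20, with a median of -0.05. This balance moved with gene length. Non-member genes had a median log2 fold change of -0.09 at exon lengths up to 500 bases (6 members) and 0.03 above 3000 bases (0 members). Members are short, with a median exon length of 783 bases against 1811 for all genes. In the members' own length range, 327 to 2078 bases, 7033 other genes had a median of -0.018, against -0.028 for the members. Of these other genes 60.1% were below 1. With the trend on exon length taken out of each library, 43 members were above 1 and 29 below, with a median of 0.01 in log2. Within sets 1, 2 and 3 the median difference was -0.04, -0.05 and -0.01, and without WT 3 the median was -0.06, without WT 1 -0.01.

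The member with the smallest p in this comparison was mRpL55, a large subunit protein of the mitochondrial kind that is essential in the fly. It was at 7.03, 7.46 and 6.80 CPM in the GP/P libraries of sets 1, 2 and 3, at 6.06, 5.56 and 6.26 in WT, and at 5.63, 5.99 and 6.48 in GP/M. All 3 GP/P libraries lay above all WT and all GP/M libraries. The fold was 1.19 of WT with a 95% interval of 1.03 to 1.37 (edgeR adjusted p = 0.9997), and 1.18 of GP/M with an interval of 1.02 to 1.35 (adjusted p = 0.9996). mRpL18, whose bacterial homologue binds the small ribosomal RNA of the large subunit, was at 13.1, 13.1 and 12.2 CPM in GP/P and at 10.8, 12.3 and 10.9 in WT. It was higher in GP/P in 3 of 3 sets, the ranges overlapped by the narrow gap between its set 3 library and WT 2, and the fold was 1.13 (adjusted p = 0.9997, edgeR). mRpL45, whose mammalian homologue anchors the mitoribosome to the inner membrane, and mRpL20, whose bacterial homologue acts in assembly of the large subunit, were at 1.06-fold and 1.07-fold of WT. Only mRpL55 had GP/P libraries all above WT, and mRpL13, mRpL19, mRpL24 and mRpL38 had them all below, where 4.07% of all genes lay apart above WT and 4.41% below. Of the exon of mRpL13, 35.17% is shared with CG10602 on the same strand.

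On the lower side, mRpS2, a small subunit protein with a bacterial homologue, was at 15.04, 14.72 and 15.3 CPM in GP/P and at 18.2, 16.8 and 15.2 in WT. It was lower in sets 1 and 2, in set 3 the values were level, and the fold was 0.896 with a 95% interval of 0.803 to 0.999 (edgeR adjusted p = 0.9997). mRpL11 was at 6.52, 7.46 and 6.66 CPM in GP/P and at 8.63, 7.82 and 7.32 in WT, lower in 3 of 3 sets with 1 GP/P library inside the WT range, at 0.867-fold. mRpS21, 48.0% of whose exon overlaps CG8870 on the other strand, was at 18.3, 18.5 and 17.4 CPM in GP/P and at 22.1, 19.8 and 17.8 in WT, or 0.906-fold. mRpL50 stood at 0.893-fold. In edgeR's test each of the 4 had adjusted p = 0.9997. With the replicate number as a block, 6 members had an unadjusted p under 0.05, namely mRpL55, mRpL18, mRpS2, mRpL11, mRpS21 and mRpL49 (8.33% against 6.85% of all genes), and the smallest adjusted p among members was 0.695 in edgeR. Across the 3 sets 5 members were higher each time, where 15.3% of all genes were, 13 were lower each time, where 14.1% of all genes were, and 54 were mixed.

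**Figure D3:**
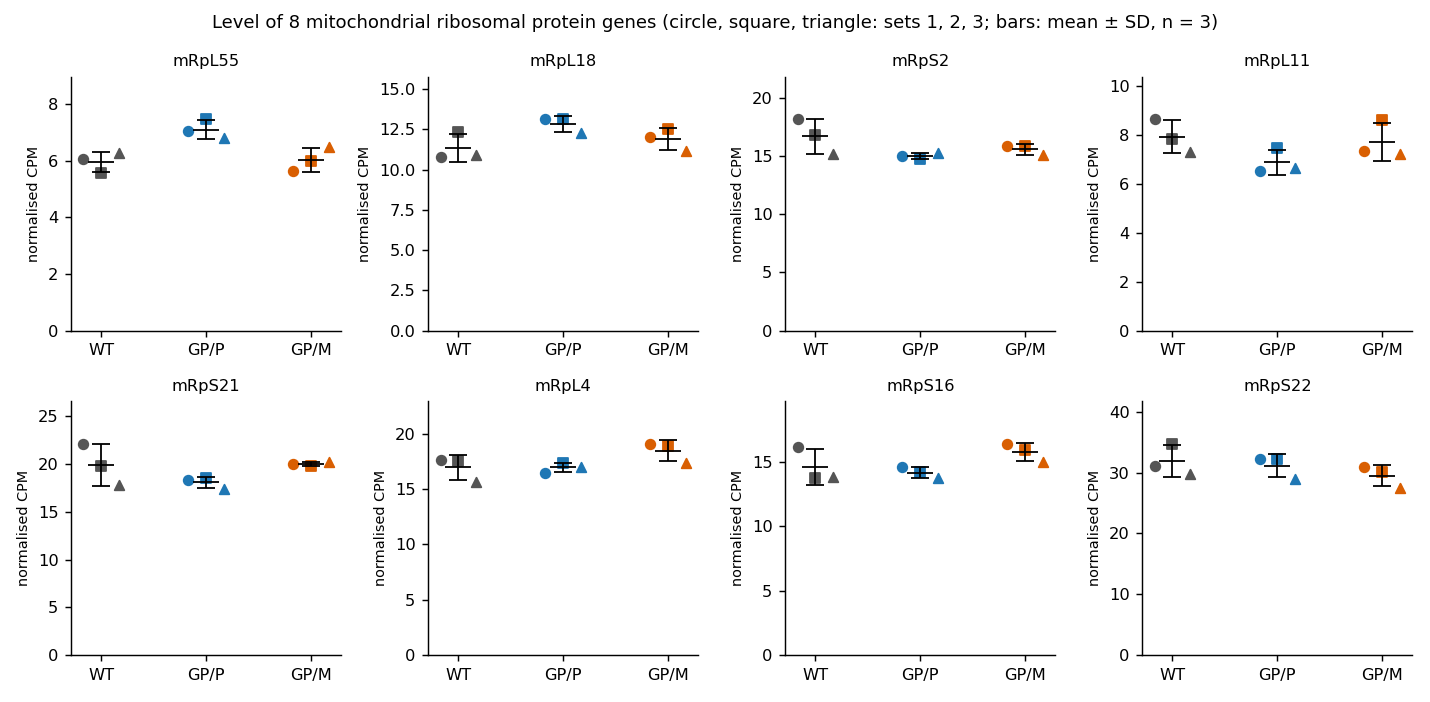
Normalised CPM of 8 of the named genes in each library (y axis from 0), grouped as WT, GP/P and GP/M, with circles, squares and triangles for sets 1, 2 and 3 and bars for the mean ± SD of 3 libraries. The 3 GP/P points of mRpL55 lie at 6.80 to 7.46 CPM above all others, and the GP/M points of mRpS16 and mRpL4 lie above the GP/P points.

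For descent through the mother, GP/M against WT, edgeR called 0 of 72 members and gave 0 an unadjusted p under 0.05, with percent called 0 and 1.53% of all genes at the unadjusted level. DESeq2 called 0 members, with 0 at the unadjusted level, against 0% and 0.596% of all genes. Fold changes ran from 0.925 to 1.10, above 1 for 26 members and below for 46 (51.7% of all genes were above), with a median of -0.02 in log2. That median moved with single libraries. Within sets 1, 2 and 3 it came to 0.00, 0.02 and -0.08, and without GP/M 3 it was 0.02, with 44 members above and 28 below. It was near 0 without WT 1 (-0.01) or WT 2 (0.00, with 35 above and 37 below), and -0.05 without WT 3 or GP/M 1 and -0.04 without GP/M 2. mRpL4, whose bacterial homologue lines the exit tunnel, was at 19.1, 18.9 and 17.4 CPM in GP/M and at 17.7, 17.5 and 15.6 in WT. It was higher in 3 of 3 sets, though the set 3 GP/M library lay inside the WT range, and the fold was 1.09 with an interval of 0.981 to 1.21. mRpS16 was at 1.08-fold, mRpL20 at 1.10-fold and mRpL34 at 1.10-fold. mRpS22, a small subunit protein without a bacterial counterpart, was at 30.9, 30.2 and 27.5 CPM in GP/M and at 31.2, 34.8 and 29.7 in WT, lower in 3 of 3 sets with overlapping ranges and a fold of 0.925. mRpL22, mRpL3 and mRpS2 were at 0.926-fold, 0.940-fold and 0.932-fold. mRpL39 alone had separate ranges, with a highest GP/M library of 11.03 CPM and a lowest WT library of 11.05, where 2.53% of all genes lay apart below WT. Both comparisons with WT share the WT libraries.

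The direct comparison of the descent lines, GP/P against GP/M, called 0 of 72 members in edgeR, with percent called 0. DESeq2 called 0 with 0 at an unadjusted p under 0.05, against 0% and 0.697% of all genes. By edgeR 1 member, mRpL55, had an unadjusted p under 0.05 (1.39%, against 1.70% of all genes). Folds ran from 0.877 to 1.18, above 1 for 28 members and below for 44 (51% of all genes were above), with a median of -0.01 in log2 that was 0.02 with the length trend removed (46 above and 26 below). It was also 0.02 without GP/M 1, and 0.01 without GP/P 3 or GP/M 2. Without GP/M 3 it was -0.05, with 18 members above and 54 below and 8 members (11.1%, against 4.21% of all genes) at an unadjusted p under 0.05, none of them called. With the replicate block 4 members were at that level (5.56%, against 4.58% of all genes), namely mRpL55, mRpS16, mRpL50 and mRpS21. Within sets 1, 2 and 3 the median came to -0.05, -0.04 and 0.04. The ranges were apart for 7 members, 4 with GP/P above (3.68% of all genes) and 3 with GP/P below (3.24%). GP/P was above for mRpL55, mRpL3, mRpL39 and mRpS29, the last being the gene for the GTP-binding protein known as DAP3 in mammals. It was below for mRpS16, mRpS21 and mRpL4. mRpS16 was at 14.6, 14.2 and 13.8 CPM in GP/P and at 16.4, 15.9 and 14.996 in GP/M, a fold of 0.897 (adjusted p = 0.9996, edgeR). mRpL3, a protein near the peptide-bond-forming centre, was at 21.5, 21.2 and 21.95 CPM in GP/P against 20.3, 19.6 and 19.5 in GP/M, a fold of 1.09. mRpL50 was at 0.877-fold and mRpL18 at 1.08-fold, each with overlapping ranges. With both lines as 1 side against WT, 0 members were called and 0 had an unadjusted p under 0.05 by edgeR (percent called 0, and 2.01% of all genes at the unadjusted level). The replicate block put 1 member at that level (1.39%, against 5.07% of all genes). DESeq2 called 0, with 0 at the unadjusted level, against 0% and 1.02% of all genes. In the edgeR fit without the block, 21 of the 72 were above 1 where 51.3% of all genes were. Separate ranges were seen for 0 members and for 1.29% of all genes. mRpL18, mRpL55, mRpL20 and mRpL34 had the smallest p above 1 and mRpS2, mRpL22, mRpL38 and mRpL11 below 1. In the authors' deposited table of each pairwise comparison, 0 members had an adjusted p under 0.05, and 0 an unadjusted one, with a smallest adjusted p of 0.9999. Over all their genes, 1.10% for GP/P against WT, 0.329% for GP/M against WT and 0.770% for GP/P against GP/M had an unadjusted p under 0.05. After adjustment 0 of 13073, 4 of 13087 and 1 of 13111 genes did.

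The partner genes of mitochondrial translation gave no calls between groups either. Of 14 translation factors 9 in GP/P and 7 in GP/M were above WT, and of 16 mitochondrial tRNA synthetases 11 and 10, with 0 called in each. The 13 genes for mitochondrial DNA and RNA maintenance had 10 and 8 above WT. Respiratory chain subunits had 28 and 14 of 60 above, and cytosolic ribosomal proteins 25 and 22 of 87. The median log2 fold changes for GP/P and GP/M were 0.02 and 0.00 for translation factors, 0.02 and 0.02 for synthetases, -0.01 and -0.02 for respiratory chain subunits, and -0.02 and -0.02 for cytosolic ribosomal proteins.

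The clearest differences among the members were between the experiments. In set 3 against set 1, with group as a term in the fit, 4 members fell and 0 rose (edgeR quasi-likelihood test, adjusted p under 0.05), where percent called lower was 6.92 and percent called higher 11.7 over all genes. The fitted values were below 1 for 62 members and above for 10, with a median of -0.09 in log2 against -0.01 for all genes, 51.7% of which were below 1. At an unadjusted p under 0.05 there were 19 members (26.4%), against 31.9% of all genes. Libraries of the 2 sets did not overlap for 21 members, all lower in set 3, where 17% of all genes were lower without overlap. The share called lower, 4 of 72, was near the share of all genes called lower. Among 7033 other genes in the members' range of exon length, 327 to 2078 bases, 11.5% were called lower.

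mRpS14, a protein of the head of the small subunit, was at 8.24, 8.63 and 8.59 CPM in the set 3 libraries of WT, GP/P and GP/M, against 10.5, 9.76 and 10.8 in set 1. All 3 set 3 libraries lay below all set 1 libraries, and the fold was 0.820 (adjusted p = 0.0156, edgeR). Of its exon, 35.76% is shared with other genes, CG32533 on the same strand. mRpL42 was at 19.1, 18.05 and 16.598 CPM against 20.2, 20.2 and 22.8, a fold of 0.849 (adjusted p = 0.0208, edgeR), with GP/M showing the widest gap. mRpL27, a protein reaching towards the peptide-bond-forming centre, was at 15.5, 15.3 and 14.3 CPM against 16.8, 16.8 and 18.6, a fold of 0.861 (adjusted p = 0.0320, edgeR). mRpS18A was at 15.6, 16.3 and 14.6 CPM against 17.9, 17.1 and 18.9, a fold of 0.863 (adjusted p = 0.0323, edgeR). For each of the 4, the lowest GP/M library was that of set 3 and the highest that of set 1. Without GP/M 1 or without GP/M 3 there were 0 calls, and without WT 3 there were 2 calls, mRpL27 and mRpL42 (2.78%, against 3.32% of all genes called lower), and without GP/P 3 there were 6 (8.33% against 5.56%). Over all genes 3.33% and 2.51% were called lower without GP/M 1 and without GP/M 3. DESeq2 called 0 of 72 members, 30 of which had no adjusted p. Of all 12913 genes, 4757 of which had none, 2.89% were called lower. At an unadjusted p under 0.05 DESeq2 had 5 of 72 members (6.94%, against 20.02% of all genes). Upper-quartile scaling called 12 lower (16.7%, against 11.6% of all genes called lower).

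**Figure D4:**
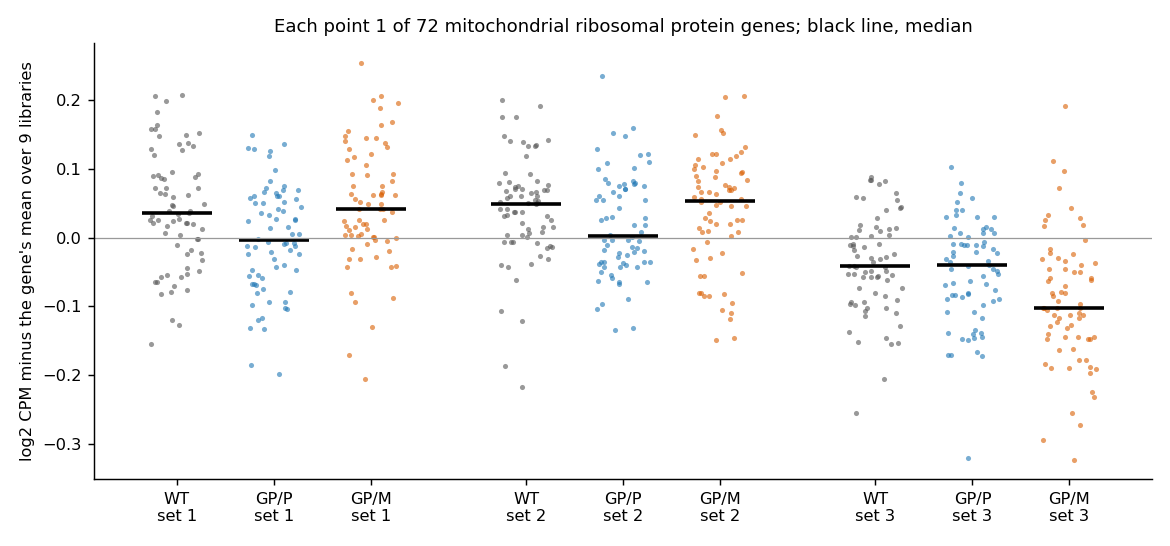
Log2 CPM of each gene minus its mean over the 9 libraries, 1 point a gene, by library and ordered by set, with the median as a black line. The medians of the set 3 libraries are at -0.04 for WT, -0.04 for GP/P and -0.10 for GP/M, and those of sets 1 and 2 run from 0.00 to 0.05.

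The other direction held few members. mRpS5, near the entry of the messenger RNA, was at 59.7, 55.9 and 60.3 CPM in set 3 and at 53.4, 56.1 and 48.9 in set 1, a fold of 1.11 that missed the threshold (adjusted p = 0.0562, edgeR), with set 3 above set 1 in WT and GP/M but not in GP/P. Without GP/P 1 it was called (adjusted p = 0.00845, edgeR), and it was also called in the fit without a group term. mRpL33 and mRpL55 were at 1.07-fold and 1.04-fold. Against set 2, set 3 had 0 members called by edgeR (percent called 5.92), 14 at an unadjusted p under 0.05 (22.7% of all genes) and a smallest adjusted p of 0.0524. DESeq2 called 0 of 72 members, 63 of which had no adjusted p. Of all 12913 genes, 6509 of which had none, it called 3.53%, and 0.651% were called lower. At the unadjusted level DESeq2 had 4 of 72 members (5.56%, against 12.04% of all genes). The fitted values were below 1 for 66 members and above for 6 (52.6% of all genes were below), with a median of -0.09. In the members' range of exon length, 71.6% of 7033 other genes were below 1, with a median of -0.06. With the length trend removed, 53 members were below 1 and 19 above. Libraries of sets 3 and 2 did not overlap for 19 members, all lower, where 14% of all genes were lower without overlap. The leading members of set 3 against set 2 were mRpL12, the stalk protein that recruits translation factors, at 0.872-fold, mRpL16 at 0.876-fold and mRpS22 at 0.888-fold. Without WT 1 these 3 were called lower (4.17%, against 2.59% of all genes), without WT 3 only mRpL42 (1.39% against 0.617%), and without GP/P 3 mRpS17 and mRpS24 (2.78% against 1.76%). Set 2 against set 1 had 0 members called by edgeR, where 2.47% of all genes were called, and 1 member, mRpS5, at an unadjusted p under 0.05 (1.10-fold, adjusted p = 0.252), against 13.6% of all genes. There 42 members were above 1 and 30 below, where 52.6% of all genes were above. mRpS30 and mRpL16 had set 2 libraries all above set 1, where 10.4% of all genes did. DESeq2 called 0 members there, with 0 at the unadjusted level, against 1.65% and 6.80% of all 12913 genes. No adjusted p was available from DESeq2 for 7 members and for 3505 of all genes.

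Gene length moved with the set difference as well. In set 3 against set 1 the median log2 fold change of non-member genes was -0.10 at exon lengths of 501 to 750 bases, -0.06 at 1001 to 1500 bases and 0.11 above 3000 bases. The members of the first pair of these classes were at -0.11 and -0.08. Over the members' whole length range, 327 to 2078 bases, 7033 other genes had a median of -0.06 and 71.3% of them were below 1. With the length trend removed, 0 members were called by limma-trend, where 3.90% of all genes were called and 1.34% were called lower. In that fit 30 members were above 1 and 42 below, and the median was -0.02. Levels of some tissue markers also differed between sets. Fat body markers summed to 3860 ± 299 CPM in set 3 and 2975 ± 57.2 in set 1, and gut markers to 2963 ± 51.8 and 3245 ± 98.1. Flight muscle markers summed to 5421 ± 128 CPM in set 3 and 4832 ± 312 in set 1, and testis markers to 2254 ± 29.4 and 2436 ± 54.2. Photoreceptor markers were level in sum, at 10174 ± 220 CPM in set 3 and 10174 ± 150 in set 1. Their median log2 deviation was higher in set 3 than in set 1 in each group. It was 0.021 against -0.037 in WT, 0.058 against 0.020 in GP/P and 0.092 against -0.028 in GP/M. Accessory gland markers summed to 3696 ± 59.4 and 3738 ± 234 CPM, and ovary and eggshell markers to 23.8 ± 4.61 and 21.9 ± 1.86. In WT the median log2 deviation of the 6 gut markers was 0.041 in set 3 and -0.005 in set 1, opposite to their sum. The part of these tissue markers in the members' difference was not tested. Among the related genes, 77 of 87 cytosolic ribosomal proteins (median -0.16) and 29 of 60 respiratory chain subunits (median -0.11) fell in set 3 against set 1, each with 0 that rose, where 6.92% of all genes were called lower. For translation factors and synthetases the medians were -0.02 and 0.03, with 1 of 14 and 1 of 16 genes called higher, where 11.7% of all genes were.

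**Figure D5:**
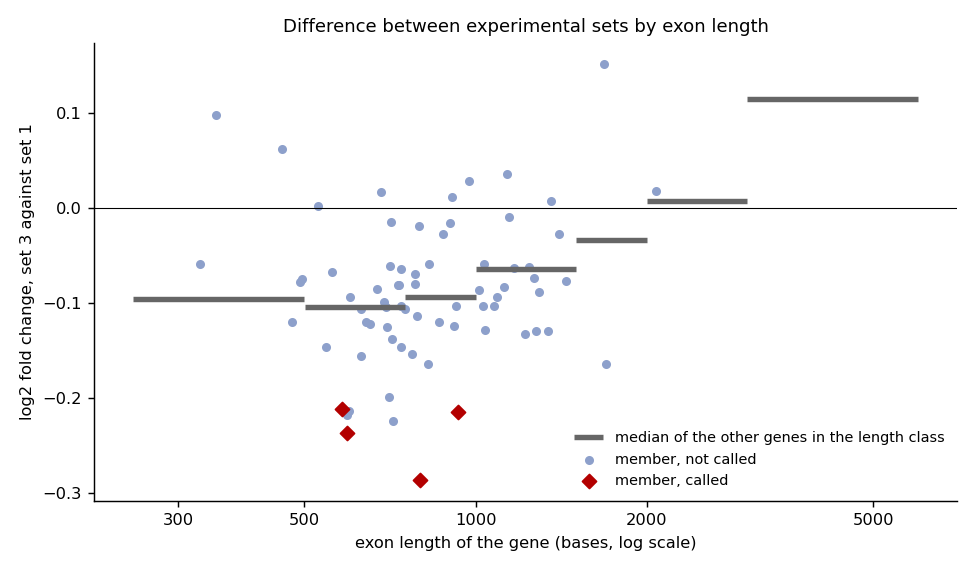
Log2 fold change of set 3 against set 1 for the 72 genes against exon length in bases (log scale), with the 4 called members as red diamonds and the median of the other genes in each length class as grey bars. Most members lie near the bars, which run from -0.10 at short lengths to 0.11 above 3000 bases.

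The spread of the members was like that of other genes of their level. The median within-group SD of log2 CPM was 0.10 for the 72 members and 0.09 for 7032 other genes in the same range of level, and 0.08 and 0.08 once set means were also taken out. Of a member's variance over the 9 libraries, a median of 35.97% lay between sets and 14.3% between groups, against 41.5% and 14.9% over all genes. Cytosolic ribosomal proteins had 79.8% between sets. The largest within-group SDs were those of mRpL32, mRpS6, mRpL42, mRpL40 and mRpS14, all between 0.15 and 0.16. mRpS6 was at 13.3, 11.9 and 12.7 CPM in WT. The GP/P libraries were at 14.1, 13.6 and 10.3 CPM and the GP/M libraries at 13.0, 13.1 and 14.8, so its lowest library was set 3 of GP/P and its highest set 3 of GP/M. mRpL32 had its lowest value, 7.97 CPM, in set 3 of GP/M, with the other 8 libraries at 9.37 to 11.0. mRpL12 stood at 22.2 ± 1.21, 23.0 ± 2.45 and 22.3 ± 1.36 CPM and mRpS29 at 22.4 ± 1.14, 22.8 ± 0.491 and 21.7 ± 1.03 in WT, GP/P and GP/M.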

How the data were processed

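Messenger RNA of whole flies was sequenced after Trizol extraction, a column clean-up and TruSeq polyA library preparation, per the labels' protocols. Raw read counts per gene were deposited by the authors in 3 tables, 1 per pair of groups, and were the input here. The tables also hold the authors' normalised signal (18 columns, not used here), standard errors and test statistics as a score (not used here), and log2 fold changes and p-values, quoted only as the authors' deposited values. The submitters' processing notes name Novoalign, DESeq and dm3; strand and multiply mapped reads are not described in the sources used here. Exon lengths and overlaps came from an annotation of another build, so no coordinates are given. For 2 members it was matched by symbol. Promoter and protein sequences were not used here.

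Counts were fitted with edgeR 4.0.16 in R 4.3.3 (TMM, filterByExpr by group, robust quasi-likelihood F-test) over all 9 libraries, with group as the only term for groups, and group and set for sets. Calls used Benjamini-Hochberg adjusted p under 0.05 over 12913 genes. Member counts were 92 to 1562 per library (median 394), and intervals rest on the fitted spread at 95% confidence. Log2 CPM used a prior count of 2, and the length trend was a loess fit (span 0.5) followed by limma 3.58.1. DESeq2 1.42.0, limma-voom, other scalings and filters, the replicate block, only the compared groups and leaving out each library were tried, and fits without set 3 and with length and block together were added after the data were seen. The comparisons of groups, with their intervals, come from the fit without the replicate block, which was run as an alternative. Same-numbered libraries share an experiment, since the design text gives each experiment a set of samples. Blocked counts of members at an unadjusted p under 0.05 are therefore given where the block moves them. Deviations from group means correlated at 0.066 to 0.293 for libraries of 1 number (8 of 9 pairs over 0.1) and at -0.267 to 0.027 otherwise. The block lowered the common biological variation from 6.56% to 4.36%. Named genes followed a rule: the 4 smallest p in each direction per comparison of groups, 3 per comparison of sets, the 5 highest, 5 lowest and 5 most variable members, all those called in a comparison of groups, and mRpL12, mRpS6, mRpS29, tko and bonsai. Others, such as the non-overlapping members and mRpS18A, were named after their values were seen. The members and lists were chosen with earlier results of these data known. Scripts were tested on simulated data.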

Additional observations from a re-analysis of the deposited data

How the results depend on the processing

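Between the groups, 0 members were called under every alternative run. With the replicate block the medians of the log2 fold change were -0.03 for GP/P against WT, -0.02 for GP/M against WT, -0.01 for GP/P against GP/M and -0.02 for both lines against WT, and with the length trend removed as well they were 0.01, -0.01, 0.02 and -0.01; the block changed no call. For set 3 against set 1, the 4 called members became 12 with upper-quartile factors (16.7%, against 11.6% of all genes called lower). They became 0 with DESeq2, where 2.89% of all 12913 genes were called lower (adjusted p not available for 30 members and 4757 of all genes). They also became 0 with the length trend removed, where 1.34% were called lower. Without a group term 5 members were called lower (6.94%, against 7.08% of all genes) and 1, mRpS5, higher, where 18.9% of all genes were called in either direction. When each library was left out there were 0 to 6, where 2.51% to 7.40% of all genes were called lower. The median was -0.018 with the length trend removed and ran from -0.121 without GP/P 3 to -0.0575 without GP/M 3. For set 3 against set 2, the 0 called became 6 with upper-quartile factors (8.33%, against 3.59% of all genes called lower). Without a group term there was 1 (1.39% against 1.65%). When each library was left out there were 0 to 3, where 0.0694% to 2.59% of all genes were called lower. The median for set 3 against set 2 was -0.0334 with the length trend removed and ran from -0.126 to -0.0508 when each library was left out. Only in set 3 against set 2 did a named gene turn direction: mRpL55 was at -0.0222 without WT 2 and -0.0121 without GP/M 3 (up to 0.125 without another library), and mRpS5 at -0.0066 with upper-quartile factors, -0.0157 without GP/P 2 and -0.0143 without GP/M 3 (up to 0.0591 without another library). Fewer genes or libraries enter some of these fits, and otherwise the cause was not tested. Counts of 92 to 1562 per member and library and 3 libraries a group limit the precision; the bounds of the intervals are given with the comparisons.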
